A study of Mus musculus with 7 samples.

Results

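Enzymes and chaperones that fold, modify, trim and crosslink collagen were examined in RNA from mouse femoral cortical bone. They comprised 10 genes, Serpinh1, Fkbp10, Crtap, P4ha1, P4ha2, Plod1, Plod2, Bmp1, Lox and Loxl2, chosen by gene symbol from the 27179 genes in the count tables. No measured value entered this rule, but the list was drawn up with earlier results of these data known. All 10 were found and all 10 passed the filter on low counts, as did 15098 genes in all. The filter asked for a level of at least 0.65 CPM (counts scaled to a common library total) in at least 3 of the 7 libraries, of either genotype.

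The RNA came from femora flushed of marrow, taken from female C57BL/6 mice aged 12 weeks. There were 3 Dmp1Cre.EfnB2f/f libraries (f/f), from mice in which Cre recombinase driven by a Dmp1 promoter fragment removes the floxed gene for EphrinB2 from late osteoblasts and osteocytes, and 4 Dmp1Cre control libraries, from mice that carry the same Cre transgene and no floxed allele. The comparison asks whether loss of EphrinB2 from these cells goes with altered mRNA for the collagen machinery. The controls were littermates or cousins, the tissue held every cell type left after flushing, and whether each library was a single mouse was not given in the labels, so p-values measure the spread between these libraries. By the labelled parent crosses, the crosses were the same within f/f libraries 1 and 2, within controls 1 and 2, and within f/f library 3 and control 3, while control 4 had parents of its own.

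Type I collagen, the main protein of bone matrix, is made as procollagen chains of Col1a1 and Col1a2 in the endoplasmic reticulum. There prolines are hydroxylated so that the triple helix is stable, lysines are hydroxylated so that crosslinks can form, and chaperones hold the helix until it is exported. Outside the cell the propeptides are cut off, and lysyl oxidases then oxidise lysines so that molecules join covalently into fibrils. Loss of several of these genes, among them SERPINH1, FKBP10, CRTAP, PLOD2 and BMP1, is a known cause of brittle bone disease in people.

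Total counts were 18119947 to 19119250 for the Dmp1Cre.EfnB2f/f labels and 17245556 to 22075778 for the controls. Efnb2, the targeted gene (Entrez gene 13642, chromosome 8 of GRCm38, 8617235 to 8661242), gave 322, 239 and 224 counts in the former and 164, 139, 110 and 117 in the latter. Its level went against the label, since every f/f library exceeded every control (log2 fold change 0.96 ± 0.21 SE, edgeR adjusted p = 0.510). Counts were summed over the whole gene and over cells that do not express Cre, so the libraries are called here by their labels, and every direction below rests on those labels. Osteoblast and osteocyte markers (8 of 8 tested, among them Bglap and Ibsp) were present in all 7 libraries, with a summed level of 1214 to 1407 CPM in the f/f libraries and 664 to 2514 CPM in the controls. Controls 1 and 4 stood apart from the other 5 libraries on the first principal component of all genes tested, which held 53.8% of the variance.

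The DNA just before the transcription start is shown for a few enzymes of differing behaviour, since hypoxia-inducible factors are known to raise P4ha1, P4ha2, Plod2 and Lox and recognise sites with the core letters ACGTG or GCGTG. RefSeq promoter windows of build GRCm38.p6 were found for 5 of the 10 genes (Serpinh1, P4ha1, P4ha2, Plod1 and Crtap), of which the 250 bases before the start were searched on both strands. Printed are Serpinh1, the enzyme whose level varied most between controls, P4ha2, whose window held both motifs, and Plod1, whose pattern across libraries was nearest to that of the group. Each runs 5′ to 3′ on the strand of the gene, with capitals marking ACGTG or GCGTG or their reverse complements. The windows are chr7:99353240-99353489 on the minus strand for Serpinh1, chr11:54100674-54100923 on the plus strand for P4ha2 and chr4:147936777-147937026 on the minus strand for Plod1.
Serpinh1: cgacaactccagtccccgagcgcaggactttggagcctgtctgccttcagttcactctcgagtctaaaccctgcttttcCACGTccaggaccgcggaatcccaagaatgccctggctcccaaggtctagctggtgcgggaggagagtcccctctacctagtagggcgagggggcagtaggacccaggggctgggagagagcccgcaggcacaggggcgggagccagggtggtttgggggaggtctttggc
P4ha2: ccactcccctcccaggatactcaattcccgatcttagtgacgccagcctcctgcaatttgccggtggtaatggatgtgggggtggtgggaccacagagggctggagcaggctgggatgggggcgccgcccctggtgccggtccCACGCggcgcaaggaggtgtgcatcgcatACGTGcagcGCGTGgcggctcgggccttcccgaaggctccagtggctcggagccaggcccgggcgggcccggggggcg
Plod1: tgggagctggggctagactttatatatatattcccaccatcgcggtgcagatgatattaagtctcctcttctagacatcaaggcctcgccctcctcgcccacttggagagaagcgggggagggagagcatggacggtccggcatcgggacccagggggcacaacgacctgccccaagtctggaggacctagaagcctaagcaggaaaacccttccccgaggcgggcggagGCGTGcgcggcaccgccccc
ACGTG, whose letters also lie within the E-box CACGTG, was in 16.6% of the 32851 windows of this length and in those of 3 of the 5 genes, Serpinh1, P4ha1 and P4ha2. GCGTG was in 28.2% of all windows and in those of 4 of the 5 genes, all but Serpinh1. Both motifs hold the letters CG, and the windows of the 5 genes were 53.6% (Crtap) to 70.0% (P4ha2) G or C. The median over all windows was 52.4%, and the shares were not matched for this. A match describes the letters of the window only and says nothing of binding in these bones.

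The enzymes differed widely in level. Per length of transcript, as RPKM (CPM per 1000 bases), Serpinh1 was the highest of the 10 in all 7 libraries, with 80.9 ± 55.5 RPKM (SD, n = 7). P4ha2 was the lowest in all 7, with 5.86 ± 2.10 RPKM (SD, n = 7). Between them the order by mean was Lox (28.1 RPKM), Bmp1 (23.3), Fkbp10 (20.7), Plod2 (20.5), Crtap (17.5), Plod1 (17.3), P4ha1 (12.1) and Loxl2 (8.91). Plod1 was above P4ha1 in 7 of 7 libraries. Other neighbours in that order changed places between libraries: Fkbp10 was above Plod2 in 3 of 7, Crtap above Plod1 in 3 of 7, Lox above Bmp1 in 5 of 7, Plod2 above Crtap in 5 of 7, and Bmp1 above Fkbp10 and P4ha1 above Loxl2 in 6 of 7.

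No enzyme passed the test between the genotypes. With edgeR's quasi-likelihood test and Benjamini-Hochberg adjustment over the 15098 genes tested, 0 of the 10 had an adjusted p under 0.05, beside 0.00% of all genes. At an unadjusted p under 0.05 there were 0 of 10, beside 9.66% of all genes (1459 genes). DESeq2 called 0 of the 10 among 72 genes (0.477%). Limma with sample weights and no day term called 0 of the 10 among 2249 genes (14.9%). The study's limma model also held the day of collection as a block, so the fit without it was not the study's analysis. With that block the study reported genes changed in either direction between the genotypes. The levels of the 2 genotypes overlapped for all 10 enzymes, while 11.3% of all genes tested had groups that did not overlap. The fold change was below 1 for 7 of the 10, beside 48.7% of all genes, and the median log2 fold change of the 10 was -0.23 beside 0.01 for all genes tested. In bulk RNA, fewer cells of a type and less RNA per cell cannot be told apart.

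**Figure D1:**
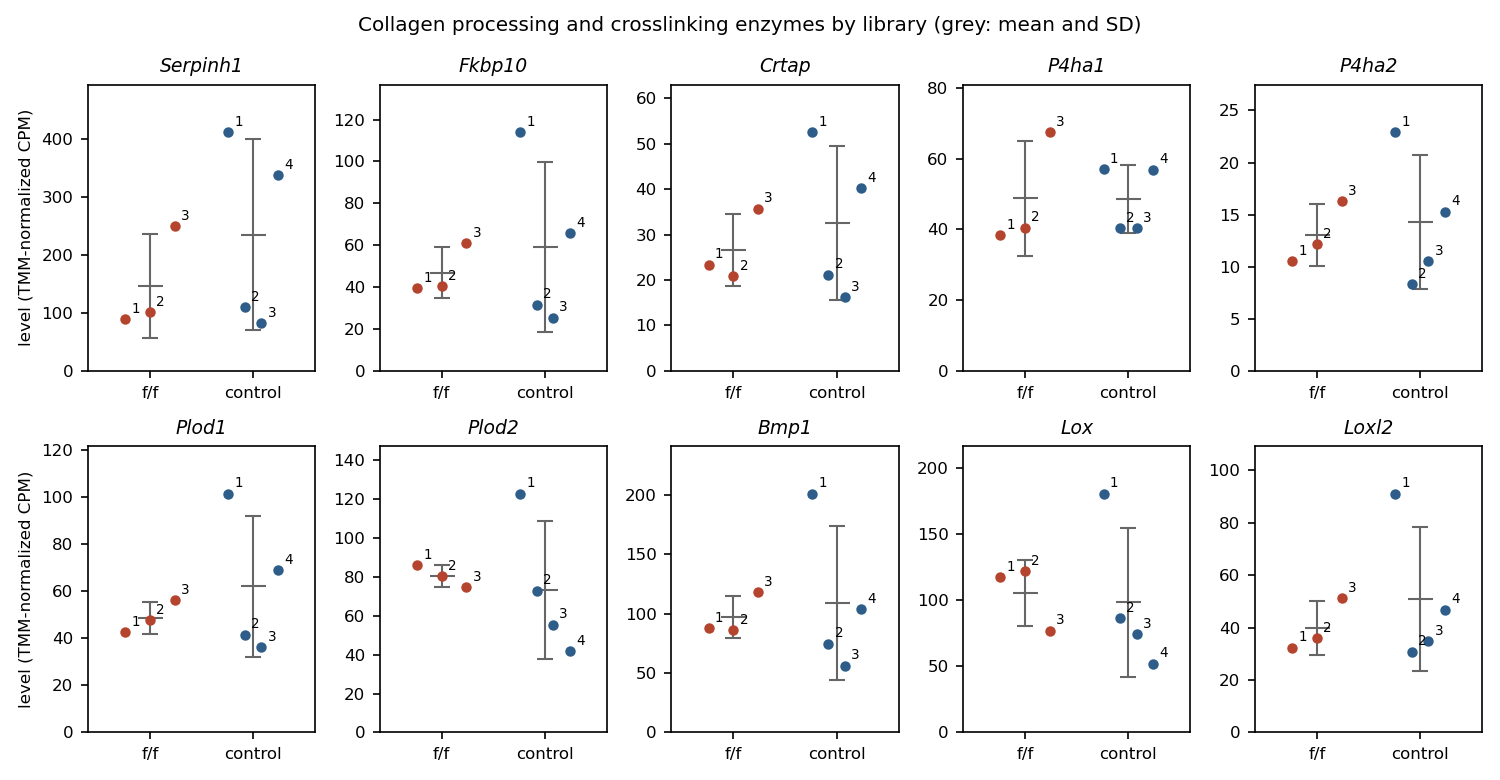
Level of each of the 10 enzymes in TMM-normalized CPM (vertical axis, each from 0) in the 3 libraries labelled Dmp1Cre.EfnB2f/f (f/f, red) and the 4 controls (blue), numbered by replicate, with the mean and SD in grey. The groups overlap in every panel, and control 1 is the highest library in each except P4ha1, where f/f library 3 is.

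Of the chaperones, Serpinh1 (HSP47, the collagen-specific chaperone that binds the folded triple helix; Entrez gene 12406, chromosome 7, 99345375 to 99353239) had levels of 89.6, 101 and 251 CPM in f/f libraries 1 to 3. In controls 1 to 4 it had 412, 111, 82.0 and 338 CPM. Controls 1 and 4 and f/f library 3 were the high libraries, the other 4 lay close together, and the genotypes overlapped. Its mean was 147 ± 89.8 CPM (SD, n = 3) against 236 ± 164 CPM (SD, n = 4), which is a log2 fold change of -0.68 ± 0.61 (SE; edgeR adjusted p = 0.637), and the 95% interval ran from 0.237-fold to 1.65-fold.

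Fkbp10 (FKBP65, a prolyl isomerase of the endoplasmic reticulum that acts on procollagen and is needed for lysyl hydroxylation by Plod2; chromosome 11, 100415694 to 100424840) had 39.5, 40.4 and 61.0 CPM in the f/f libraries. The controls had 114, 31.7, 25.5 and 65.6 CPM. Control 1 was thus above all other libraries and controls 2 and 3 below all others, with the f/f libraries between them. The log2 fold change was -0.33 ± 0.49 (SE; edgeR adjusted p = 0.762). The annotated gene overlaps Nt5c3b, with which reads could be shared.

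The prolyl hydroxylation enzymes included the narrowest spread of the group. P4ha1 (the common catalytic subunit of prolyl 4-hydroxylase; chromosome 10, 59323197 to 59373304) had 38.4, 40.5 and 67.5 CPM in the f/f libraries. It had 57.1, 40.5, 40.3 and 56.9 CPM in the controls. Each genotype therefore held libraries near 40.5 CPM and libraries well above it, and the means were 48.8 ± 16.2 CPM (SD, n = 3) and 48.7 ± 9.58 CPM (SD, n = 4). The log2 fold change was 0.0027 ± 0.25 (SE; edgeR adjusted p = 0.997), with a 95% interval from 0.676-fold to 1.48-fold. The highest control was 1.42-fold above the lowest, the smallest such range of the 10, while that of Serpinh1 was 5.03-fold.

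P4ha2, the other widely expressed catalytic subunit (chromosome 11, 54100924 to 54131668), had 10.5, 12.2 and 16.3 CPM in the f/f libraries. In the controls it had 22.9, 8.36, 10.5 and 15.3 CPM. Both the highest and the lowest library were controls, and the log2 fold change was -0.13 ± 0.35 (SE; edgeR adjusted p = 0.866). Crtap (the cartilage-associated protein that works with prolyl 3-hydroxylase; chromosome 9, 114375131 to 114390712) had 23.4, 20.8 and 35.7 CPM in the f/f libraries and 52.5, 21.2, 16.2 and 40.2 CPM in the controls. Again the highest and the lowest library were controls, with a log2 fold change of -0.29 ± 0.41 (SE; edgeR adjusted p = 0.753). The annotated Crtap overlaps 4930520O04Rik.

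The lysyl hydroxylases Plod1 and Plod2 had unlike patterns. Plod1, which modifies lysines within the helix (chromosome 4, 147909753 to 147936776), had 42.6, 47.7 and 56.0 CPM in the f/f libraries. The controls had 101, 41.6, 36.3 and 69.0 CPM. Controls 1 and 4 were above every f/f library and controls 2 and 3 below every f/f library. The log2 fold change was -0.35 ± 0.35 (SE; edgeR adjusted p = 0.661).

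Plod2, which hydroxylates the telopeptide lysines used in stable crosslinks (chromosome 9, 92539636 to 92608428), had 85.95, 80.3 and 74.8 CPM in the f/f libraries, the tightest f/f group of the 10 enzymes with a highest to lowest ratio of 1.15. It had 123, 73.0, 55.4 and 41.7 CPM in the controls. Here control 4, which for Plod1 was below control 1 alone, was the lowest of all libraries. All 3 f/f libraries lay above controls 2, 3 and 4 and below control 1, and the log2 fold change was 0.13 ± 0.33 (SE; edgeR adjusted p = 0.860, 95% interval 0.651-fold to 1.85-fold). Plod2 overlaps the annotated B430319G15Rik.

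Bmp1, the protease that cuts off the C-terminal propeptide and also activates lysyl oxidase (chromosome 14, 70474555 to 70520716, overlapping Gm52136), had 87.7, 85.8 and 118 CPM in the f/f libraries. The controls had 201, 74.6, 56.1 and 104 CPM. The f/f libraries were above controls 2 and 3 and below control 1, with a log2 fold change of -0.17 ± 0.40 (SE; edgeR adjusted p = 0.857).

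Of the crosslinking enzymes, Lox (lysyl oxidase, Entrez gene 16948) had 117, 122 and 77.0 CPM in the f/f libraries. It had 180, 86.4, 74.1 and 51.9 CPM in the controls. As for Plod2, control 4 was the lowest library and control 1 the highest, and f/f libraries 1 and 2 lay above the other 3 controls. The log2 fold change was 0.10 ± 0.40 (SE; edgeR adjusted p = 0.914), with a 95% interval from 0.574-fold to 2.00-fold. Loxl2 (lysyl oxidase-like 2, chromosome 14, 69608692 to 69695834, overlapping Gm27177 and Mir6950) had 32.3, 35.8 and 51.4 CPM in the f/f libraries and 91.1, 30.8, 34.9 and 46.8 CPM in the controls. Control 1 stood far above the other 6 libraries, and the log2 fold change was -0.35 ± 0.38 (SE; edgeR adjusted p = 0.681).

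Most of the enzymes varied together between libraries of the same genotype, with Plod2 and Lox apart in control 4. Control 1 was the highest library for 9 of the 10 enzymes, beside 14.0% of all genes tested, and P4ha1 was the exception. Control 4 lay above controls 2 and 3 for 8 of the 10, and for 21 of 29 further genes of the collagen pathway. The share of all genes with that order was not counted. Plod2 and Lox were lowest in control 4, as were 24.1% of all genes tested. Centred on each gene's own mean over the 7 libraries, the median log2 level of the 10 was 0.93 in control 1, 0.30 in f/f library 3 and 0.24 in control 4, and between -0.47 and -0.20 in the other 4 libraries. Plod1 lay closest to this median profile, with a root mean square difference of 0.11 on the log2 scale over the 7 libraries, and Lox (0.58), Serpinh1 (0.50) and Plod2 (0.50) farthest. The profile is the median of the same 10 enzymes, so their closeness to it is partly built in. Even so, Lox was farther from it than the median gene tested. Of the genes tested outside the group, those nearest to it were Slc2a10 (0.07), Pald1 (0.09), Fkbp9 (0.10), Apcdd1 (0.10) and Copz2 (0.11), where the median gene was at 0.53. Fkbp9 is a relative of Fkbp10 in the same compartment, and Slc2a10 is a sugar transporter.

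**Figure D2:**
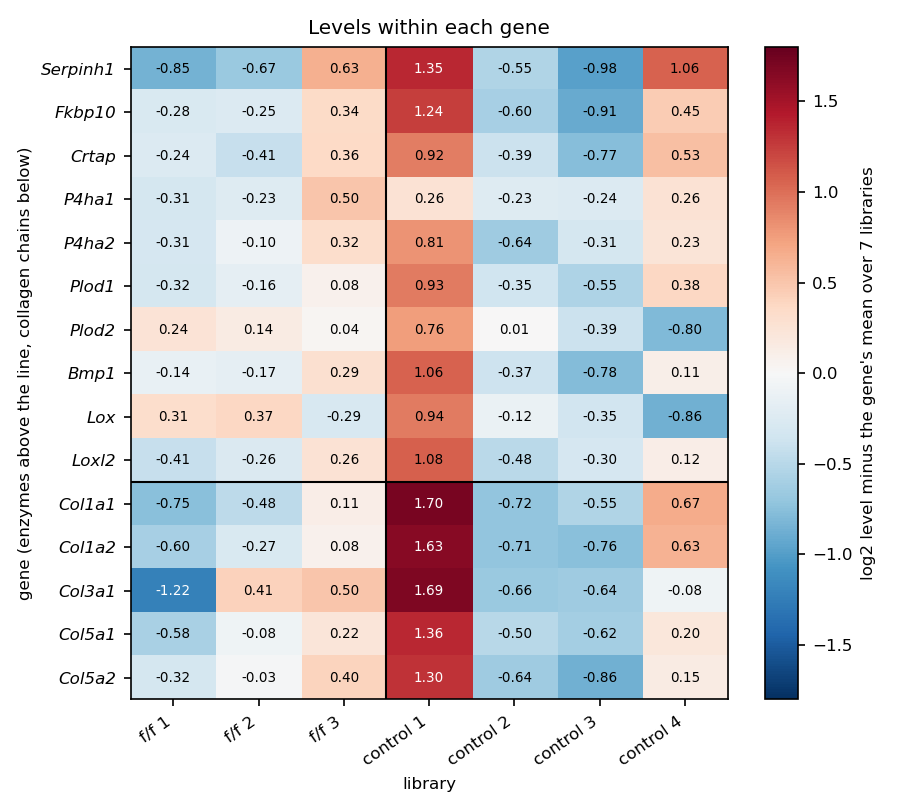
Log2 level of each enzyme (upper 10 rows) and of 5 fibrillar collagen chains (lower rows) in each of the 7 libraries, minus the gene's mean over the 7, with the value printed in each cell and red for above the mean. Control 1 is the reddest column, from 0.26 for P4ha1 to 1.70 for Col1a1, and the rows below 0 in control 4 are Plod2 (-0.80), Lox (-0.86) and Col3a1 (-0.08).

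Libraries that shared a parent cross were compared in pairs. Control 1 exceeded control 2, of the same cross, for all 10 enzymes, by 1.41-fold (P4ha1) to 3.73-fold (Serpinh1), beside 53.0% of all genes tested. In the library pair of different genotype and shared cross, f/f library 3 and control 3, all 10 were higher in the f/f library. The ratios were 1.04-fold (Lox) to 3.06-fold (Serpinh1), beside 50.6% of all genes higher. In the pooled comparison 7 of the 10 were lower in the f/f libraries. Libraries 1 and 2 of f/f, which also shared parents, differed least, with ratios from 0.864 to 1.13 and 3 of the 10 higher in library 1. Each of these is a pair of single libraries and has no replicate check.

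The direction of the pooled comparison rested on control 1. Without it, the median log2 fold change of the 10 enzymes was 0.14 and 8 of the 10 were above 0, beside 50.7% of all genes tested. Without control 2, 3 or 4 the median stayed below 0, at -0.38, -0.44 and -0.18, with 2, 1 and 1 of the 10 above 0. Leaving out controls 1 and 4, chosen after seeing that they stood apart, gave a median of 0.43 with all 10 above 0, beside 51.8% of all genes, and 0 of the 10 had an adjusted p under 0.05 by edgeR, beside 0.0132% of all genes (2 genes). A fit with the parent cross as a block, in which only f/f library 3 and control 3 carry the genotype, gave a median of 0.69 with all 10 above 0, beside 50.6%.

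**Figure D3:**
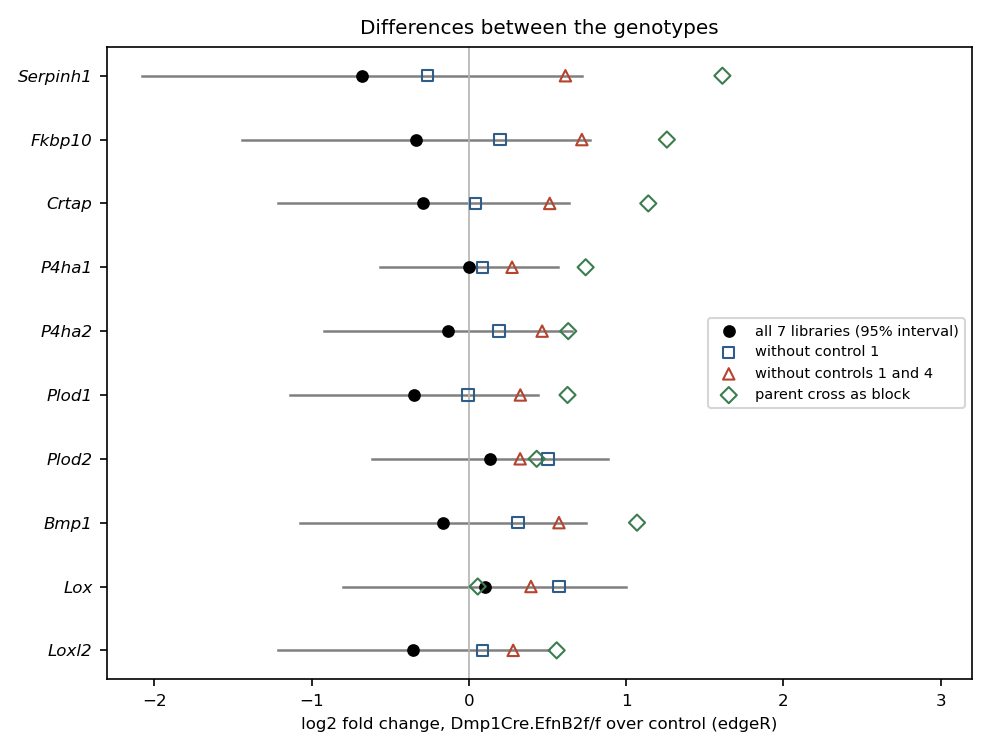
Log2 fold change of each enzyme, libraries labelled Dmp1Cre.EfnB2f/f over controls (horizontal axis), with all 7 libraries (black, grey line for the 95% interval), without control 1 (squares), without controls 1 and 4 (triangles) and with the parent cross as a block (diamonds). The 95% interval of every enzyme includes 0, and the triangles and diamonds all lie above 0.

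Day of collection is named in the study's methods as a block but is not in the labels, so each of the 12 ways to place a pair of libraries, 1 of each genotype, on a second day was fitted with the limma pipeline. Any enzyme was called in 1 of the 12. With f/f library 3 and control 4 as that pair, 32.7% of all genes tested (4931 genes) had an adjusted p under 0.05, and 2 of the 10 enzymes were called, both higher in the f/f libraries. These were Lox, with a log2 fold change of 0.53 ± 0.11 (SE; limma adjusted p = 0.0095), and Plod2, with 0.38 ± 0.12 (SE; limma adjusted p = 0.0437). The labels do not give the day. In the order of the deposited sample numbers, f/f library 3 and control 4 came last. Their deviations from the group means had the highest correlation of the 12 pairs (0.48). That correlation comes from the same counts as the fit, so it is not independent of the number of genes called. Whether they were the real pair was not tested.

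The collagen chains that these enzymes act on varied in the same libraries. Col1a1 had 6994, 8429 and 12697 CPM in the f/f libraries and 38232, 7143, 8040 and 18676 CPM in the controls, and Col1a2 had 6550, 8211 and 10520 CPM against 30755, 6072, 5872 and 15315 CPM. Both were highest in controls 1 and 4. Their log2 fold changes were -0.94 ± 0.63 (SE; edgeR adjusted p = 0.552) and -0.78 ± 0.62 (SE; edgeR adjusted p = 0.594). Of the minor fibrillar chains, Col3a1 had a log2 fold change of -0.36, Col5a1 of -0.45 and Col5a2 of -0.21 (edgeR adjusted p from 0.680 to 0.861). Of the 5 chains 0 were called, beside 0.00% of all genes tested. All 5 were highest in control 1, beside 14.0% of all genes tested.

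Set against type I collagen counts of the same library, most of the enzymes were low rather than high in control 1. Per 1000 counts of Col1a1 and Col1a2, P4ha1 had 2.83, 2.43 and 2.91 counts in the f/f libraries and 0.828, 3.06, 2.90 and 1.67 in the controls. Plod2 had 6.35, 4.83 and 3.22 counts against 1.78, 5.52, 3.98 and 1.23, and Lox had 8.65, 7.32 and 3.32 against 2.62, 6.54, 5.32 and 1.53. For these 3 enzymes, and also for P4ha2, Plod1, Bmp1 and Loxl2, controls 1 and 4 were the lowest libraries. The divisor was largest there, with 1334129 type I collagen counts in control 1 and 627061 in control 4. The other libraries had 232230 to 441592. A large divisor lowers the ratio of any gene, and the share of all genes with this pattern was not counted. Serpinh1 was different, with 6.62, 6.09 and 10.8 counts in the f/f libraries and 5.98, 8.37, 5.89 and 9.94 in the controls, with control 4 near the top of its range. With edgeR scaled to these chains the log2 fold changes of all 10 enzymes were above 0, as were those of 84.7% of all genes tested. The median of the 10 was 0.41 beside 0.31 for all genes, and 0 of the 10 were called, beside 0.00662% of all genes.

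**Figure D4:**
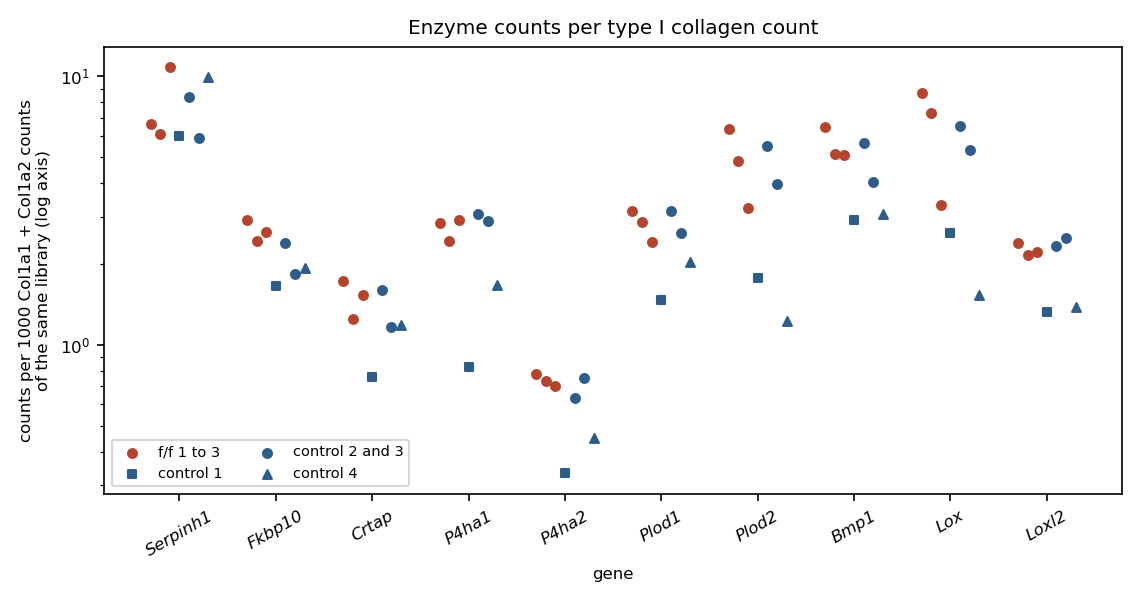
Counts of each enzyme per 1000 counts of Col1a1 and Col1a2 in the same library (vertical log axis), for the f/f libraries (red circles), controls 2 and 3 (blue circles), control 1 (square) and control 4 (triangle). The square or the triangle is the lowest point for 9 of the 10 enzymes, and for Serpinh1 the triangle is among the highest points. Controls 1 and 4 had the most type I collagen counts, the divisor, and the share over all genes was not counted.

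Within a library, the balance between related enzymes needs no scaling between libraries. The ratio of Plod2 to Plod1, per length, was 1.77, 1.48 and 1.17 in the f/f libraries and 1.06, 1.54, 1.34 and 0.529 in the controls. Control 4 was the single library with less Plod2 than Plod1. The difference in the mean log2 ratio was 0.48 (two-sided exact permutation test over 35 splits, p = 0.343, where 0.0286 is the smallest p possible), and it was 0.16 without control 4. The ratio of Loxl2 to Lox was 0.192, 0.205 and 0.464 in the f/f libraries and 0.351, 0.248, 0.328 and 0.627 in the controls, a difference of -0.47 (exact permutation p = 0.371), with Lox above Loxl2 in every library. That difference was -0.25, -0.29 and -0.88 without f/f library 1, 2 or 3, and -0.22 without control 4. P4ha1 exceeded P4ha2 by 1.92- to 2.40-fold in the f/f libraries and by 1.44- to 2.80-fold in the controls, a difference of 0.03 (exact permutation p = 0.943). Adjusted over these 3 ratios, the p-values were 0.557, 0.557 and 0.943 in the same order.

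None of the further genes of the pathway that were tested was called either. Of 31 further genes for prolyl and lysyl hydroxylation, glycosylation, chaperones and export, propeptide removal and crosslinking, 29 were tested. By edgeR 0 were called higher and 0 lower (all genes: 0.00%), with 0 at an unadjusted p under 0.05 (all genes: 9.66%). The entry named Mia2, an export factor, had 0 counts in every library, and its older symbol, Ctage5, was not looked up. Tll2, a relative of Bmp1, had 7 to 15 counts per library and was below the filter. Log2 fold changes were above 0 for 8 and below 0 for 21 (all genes: 48.7% below 0), with a median of -0.19. Control 1 was highest for 17 of the 29, beside 14.0% of all genes tested. By step, the medians were -0.36 for 7 prolyl hydroxylation genes, -0.17 for 4 lysyl hydroxylation and glycosylation genes, -0.12 for 9 chaperone and export genes, -0.28 for 6 propeptide genes and -0.03 for the 3 other lysyl oxidases.

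Markers of other cell types also varied between the libraries. By edgeR none of the marker genes had an adjusted p under 0.05. At an unadjusted p under 0.05, either way, there were 9.66% of all genes tested. Tendon and fibroblast markers (8 of 8 tested, Dcn and Thbs4 the highest) summed to 589 to 728 CPM in the f/f libraries. In controls 1 to 4 they summed to 1539, 351, 435 and 355 CPM. Control 1 was highest for 7 of the 8, beside 14.0% of all genes tested. Cartilage markers (6 of 8 tested, Col9a1 and Matn3 below the filter) summed to 782 to 1333 CPM in the f/f libraries and 464 to 2474 CPM in the controls. Control 1 was the highest library for these sums and for the osteoblast and osteoclast sums, the latter being 1181 to 1246 CPM against 760.5 to 2651 CPM. Skeletal muscle markers (8 of 8 tested, Myh4 and Acta1 the highest) summed to 23378 to 36959 CPM in the f/f libraries and 10869 to 25237 CPM in the controls. Of their fold changes 8 of 8 were above 1 (all genes: 48.7% below 1), and 4 had an unadjusted p under 0.05. Erythroid markers (6 of 8 in the tables used here, Hba-a1 and Slc4a1 the highest) summed to 4375 to 10151 CPM against 11492 to 32038 CPM, with 4 lower at an unadjusted p under 0.05 and the highest sum in control 4. Granulocyte markers (8 of 8 tested) summed to 12067 to 15072 CPM in the f/f libraries and 17231 to 20472 CPM in the controls, with 2 lower at an unadjusted p under 0.05. The part of these cells in the enzyme levels was not tested.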

How the data were processed

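RNA was extracted from flushed femora and libraries were made with the TruSeq RNA kit. Per the labels and the study's methods, the authors demultiplexed with bcl2fastq 2.17.1.14, mapped 100 bp paired-end reads to mm10 (GRCm38) with Rsubread and deposited raw counts per gene from featureCounts, for which the strand setting is not given in the sources used here. Groups came from the labelled genotype. No library was a repeat of another, since all pairs within a genotype differed beyond counting noise.

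The filter, 0.65 CPM or more in 3 or more libraries, kept 16302 genes, of which 1204 were left out by class, after the classes the study names (immunoglobulin segments, ribosomal RNA but not ribosomal protein genes, predicted genes and pseudogenes, Y-linked genes and Xist, and identifiers with no symbol in place of obsolete ones), which left 15098. Counts were tested with edgeR 4.0.16 in R 4.3.3 (TMM, quasi-likelihood, robust; threshold 0.05 after Benjamini-Hochberg adjustment). The study's test, limma with a day block, served as an alternative because the labels do not give the day and because counts call for edgeR. The procedure was tested on simulated data. Levels are TMM-normalized CPM, and RPKM use the gene lengths in the count tables. Intervals are 95%. Alternatives were DESeq2 1.42.0, limma 3.58.1 (quantile normalization, prior count 2) with and without sample weights and with 12 day placements, other scalings, no filter, all gene classes, blocks for replicate number or parent cross, and leaving out libraries. Coordinates are from RefSeq GRCm38.p6. The enzymes, the further pathway genes and the marker lists were chosen with earlier results of these data known. Named are Efnb2, the 10 enzymes, 5 collagen chains, further pathway genes with low p (none qualified) or no counts (Mia2), the 5 genes with the most similar profile, and the highest markers of each list. Outside this rule, Tll2, Mia3, Sec23a, Loxl1 and Loxl4 were named after their values were seen.

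Markers of other cell types gave these results too, at an unadjusted p under 0.05 by edgeR (all genes: 9.66%, either way). For B lineage, 8 were tested and 1 was higher, with sums of 332 to 382 CPM in f/f and 243 to 371 CPM in controls. For endothelial, 8 were tested and 3 were higher, with 1037 to 1128 against 846 to 1573 CPM. For adipocyte, 8 were tested and 0 differed either way, with 622 to 827 against 278 to 844 CPM.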

Additional observations from a re-analysis of the deposited data

Results flagged for a closer look

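Of 19 values looked at in the 4 controls for a library far from the rest, 1 stood out. It was the level of Col3a1, the chain of type III collagen, which was 2905 CPM in control 1 and 571, 581 and 853 CPM in controls 2, 3 and 4. The gap from control 1 to the next control was 0.879 of the range of the group, above Dixon's 95% limit for 4 samples. Chance passes this limit in about 1 of 20 such groups. Type III collagen is made in tendon, vessels and fibrous tissue, and the tendon and fibroblast markers were also highest in control 1, with a sum of 1539 CPM against 351 to 435 CPM in the other 3 controls. The part of such tissue in the Col3a1 level was not tested. None of the 10 enzymes passed the limit in the controls.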

How the results depend on the processing

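No count of enzymes called rose above 0 under any alternative except the limma pipeline with a day block, where f/f library 3 and control 4 as the second day gave 2 enzymes, 4 of the further pathway genes and 4931 of all genes. The direction of the enzymes was not stable: of 200 values of single enzymes under alternatives, 58 had the other sign and 142 kept theirs, and each of the 10 changed sign at least once. The number of all genes called was 72 with DESeq2, 2249 with limma and sample weights, 1 with the replicate block, 2 without controls 1 and 4 (an alternative chosen after seeing the data), and 0 to 2 when 1 library was left out. The cause of these differences was not tested.

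The median log2 fold change of the 10 enzymes ranged from -0.44 to 0.14 when 1 library was left out, and it was above 0 without control 1. It was 0.20 with limma and sample weights, 0.69 with the parent cross as a block, 0.41 when scaled to Col1a1 and Col1a2 (all genes 0.31) and 0.43 without controls 1 and 4. Over the 12 day placements the median ran from -0.23 to 0.30 and was above 0 in 9. With the replicate block the median was -0.0017. Same-numbered libraries of the genotypes had correlations of -0.14, 0.06 and -0.42 in their deviations from the group means, so the numbers do not pair the samples.

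Enzymes whose sign turned are given with their log2 fold changes. With the parent cross block these were Serpinh1 1.61, Fkbp10 1.26, Crtap 1.141, P4ha2 0.63, Plod1 0.63, Bmp1 1.07, Loxl2 0.56. Without controls 1 and 4 they were Serpinh1 0.61, Fkbp10 0.72, Crtap 0.51, P4ha2 0.47, Plod1 0.33, Bmp1 0.57, Loxl2 0.28. Scaled to the collagen chains they were Serpinh1 0.054, Fkbp10 0.44, Crtap 0.35, P4ha2 0.45, Plod1 0.28, Bmp1 0.51, Loxl2 0.26. With limma and sample weights they were Fkbp10 0.34, Crtap 0.037, P4ha1 -0.0066, P4ha2 0.27, Plod1 0.14, Bmp1 0.30, Loxl2 0.077. Without the weights they were P4ha1 -0.029, Bmp1 0.047. The highest day placements gave Serpinh1 0.54, Fkbp10 0.50, Crtap 0.33, P4ha2 0.27, Plod1 0.22, Bmp1 0.50, Loxl2 0.13, and the lowest gave P4ha1 -0.17, Lox -0.13. The replicate block gave Fkbp10 0.045, P4ha2 0.025, Bmp1 0.032, Lox -0.023. P4ha1 was -0.019 with DESeq2's size factors, in edgeR and in DESeq2, and -0.0063 with all gene classes kept. Leaving out 1 library at a time, the values were Serpinh1 -1.30 to -0.26, Fkbp10 -0.58 to 0.20, Crtap -0.56 to 0.042, P4ha1 -0.30 to 0.15, P4ha2 -0.33 to 0.19, Plod1 -0.53 to -0.0055, Plod2 -0.060 to 0.50, Bmp1 -0.38 to 0.31, Lox -0.11 to 0.57, Loxl2 -0.58 to 0.087. The difference in log2 ratio of P4ha1 to P4ha2 ran from -0.15 to 0.16, being below 0 without f/f library 3 or control 1, while that of Plod2 to Plod1 ran from 0.16 to 0.67 and that of Loxl2 to Lox from -0.88 to -0.22.

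With 3 and 4 libraries and this spread, differences of the size of the 95% intervals plotted for the 10 enzymes could not be detected.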

Other observations

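The export genes Mia3 and Sec23a lacked the high level of control 1. These genes, and the lysyl oxidases below, were named after their values were seen. Mia3 (TANGO1, which loads procollagen into transport carriers) had 160, 147 and 133 CPM in the f/f libraries and 103, 133, 137 and 82.8 CPM in the controls, so controls 1 and 4 were the lowest libraries. Its log2 fold change was 0.36 with a standard error of 0.21 and an adjusted p of 0.525 by edgeR. Sec23a, a coat protein of the same carriers, had 77.9, 83.9 and 80.1 CPM in the f/f libraries and 65.8, 70.4, 75.4 and 59.3 CPM in the controls. Its groups did not overlap, as those of 11.3% of all genes tested did not, and edgeR gave a log2 fold change of 0.25 with a standard error of 0.15 and an adjusted p of 0.527. Both genes were lowest in control 4, the library in which Lox and Plod2 were also lowest.

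Loxl4, a relative of Lox, had 28.4, 28.5 and 19.4 CPM in the f/f libraries and 46.4, 20.2, 14.6 and 14.6 CPM in the controls. As for Lox, control 1 was the highest library and f/f libraries 1 and 2 came next. Loxl1, another relative, had 33.0, 34.5 and 51.8 CPM in the f/f libraries and 80.4, 37.0, 22.0 and 60.3 CPM in the controls, with controls 1 and 4 the highest, as for Plod1 and Serpinh1.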
